A study of Mus musculus with 2 samples.

Results

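Granins and neuropeptides are the cargo of dense-core secretory granules in nerve and endocrine cells. They are described here by 10 genes in the ureter of mouse embryos: the granin genes Vgf, Scg2, Scg3, Scg5, Chga and Chgb, and the neuropeptide genes Npy, Gal, Vip and Cartpt. The members were the non-control probes carrying these 10 gene names on 2 two-colour oligonucleotide arrays, out of 21097 genes that could be tested. The genes were chosen by their log2 ratios on these same arrays. Those ratios, and the test results on them, are therefore given as a description only. The study asked which transcripts differ in the ureter when the T-box repressor TBX2 is made in cells whose lineage has expressed Tbx18. Whole ureters of male embryos of the outbred NMRI stock were dissected at embryonic stage E13.5. Each array held 1 extract of each genotype, and the dyes were exchanged between the arrays, so n = 2 for each mean.

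Both genotypes carried the Hprt(Tbx2/Y) allele, a Tbx2 transgene at the X-linked Hprt locus. The Tbx2-GOF (gain of function) embryos were also Tbx18(cre/+), and the control embryos were Tbx18(+/+). The transgene is therefore active only in cells that have expressed cre from Tbx18, a marker of the ureteric mesenchyme, and the Tbx2-GOF embryos have 1 Tbx18 allele taken by cre. The labels give neither the number of embryos in an extract nor whether different embryos went into arrays 1 and 2. The p-values below therefore measure nothing but the difference between 2 hybridisations, which may be technical. Array 1 is the one with AlexaFluor647 on the Tbx2-GOF extract and array 2 the one with AlexaFluor555 on it, so array and dye orientation cannot be told apart. Both arrays were on 1 slide and were scanned together, which left no such batch to test. The array number limits the precision.

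Granins are acidic, calcium-binding proteins that aggregate in the trans-Golgi network and help to load and form dense-core granules, and most are themselves cut into bioactive peptides. Neuropeptides travel in the same granules as precursors, which convertases cut at paired basic residues before release. In the urogenital tract such granules are known from sympathetic and parasympathetic nerve cells, chromaffin cells and scattered neuroendocrine cells of the epithelium.

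Each of the 10 genes had 1 probe, and each probe was well above background in both genotypes on both arrays, so none was lost to the filter on dim probes. All 10 log2 ratios of Tbx2-GOF over control were above 0 on both arrays, where 26.1% of all genes tested were. The median of the 10 genes was 0.54 on array 1, 1.66 on array 2 and 1.09 for the mean of the arrays, and the median over all genes tested was 0.00 on each array. In 5 of the 10 (Vgf, Scg2, Scg5, Chgb and Cartpt) the ratio was at least 1.5-fold on both arrays, as in 0.825% of all genes. In limma's test over all genes 2 of the 10, Vgf and Scg2, passed an adjusted p of 0.05 upward, against 0.360% of genes tested. Downward 0 passed, against 0.280%. At an unadjusted p of 0.05 there were 9 upward and 0 downward. Of all 21097 genes tested, 1970 passed that unadjusted threshold in either direction. Since the genes were chosen on this contrast, nothing is read from these counts. A whole-ureter extract cannot tell a change in the number of cells of a type from a change in RNA per cell.

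**Figure D1:**
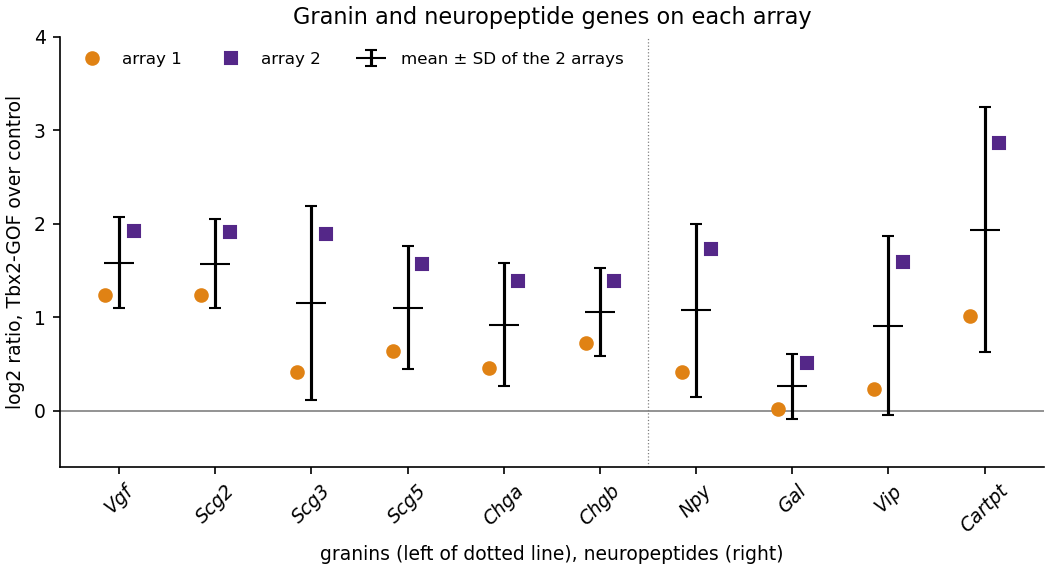
Log2 ratio of Tbx2-GOF over control (vertical axis) for each granin and neuropeptide gene (horizontal axis), with circles for array 1, squares for array 2, and bars for the mean ± SD of the 2 arrays. All 10 squares lie above their circles, and Gal has the lowest pair, at 0.01 and 0.51.

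Vgf encodes a precursor of several secreted peptides that is strongly induced by nerve growth factors. Its probe lies at chr5:137509153-137509212 (mm9). Its normalised signal, in arbitrary units after scaling of single channels, was 1381 and 1614 in the Tbx2-GOF extracts and 584 and 424 in the control extracts of arrays 1 and 2. Both Tbx2-GOF signals were above both control signals, and the lower of the former exceeded the higher of the latter by 1.24 on the log2 scale. The log2 ratio was 1.24 on array 1 and 1.93 on array 2, at least 2.37-fold on each, with a mean of 1.58 ± 0.48 (SD, n = 2). By mean ratio it ranked 4 from the highest of the 21097 genes.

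Scg2 encodes secretogranin II, the precursor of the peptide secretoneurin. Its probe (chr1:79431323-79431382, mm9) gave signals of 1108 and 1133 in Tbx2-GOF and 469.9 and 302 in control. Its values ran close to those of Vgf: 1.24 and 1.91 on the 2 arrays, a mean log2 ratio of 1.57 ± 0.47 (SD, n = 2) or 2.97-fold. The genotypes did not overlap, with a gap of 1.24 on the log2 scale.

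The chromogranins, which are the bulk granins of chromaffin granules, were higher by less. Chgb (probe at chr2:132620703-132620762, mm9) had signals of 23982 and 20290 in Tbx2-GOF and 14575 and 7761 in control, and a log2 ratio of 1.05 ± 0.47 (SD, n = 2). Its probe was printed 10 times on each array. After 1 spot of array 1 marked as an outlier was left out, the spots gave 0.72 ± 0.05 (SD of 9 spots) on array 1 and 1.39 ± 0.06 (SD of 10 spots) on array 2. The 2 sets of spots did not overlap, ranging from 0.64 to 0.78 and from 1.31 to 1.46, so the arrays differed for Chgb by more than the spread between spots of 1 array. Chga (chr12:103803083-103803142, mm9) had signals of 6814 and 6206 in Tbx2-GOF and 4977 and 2379 in control. It stood at 0.45 and 1.38 on the 2 arrays, a mean of 0.92 ± 0.66 (SD, n = 2). For both chromogranins the Tbx2-GOF signal was the lower one on array 2, and the control signal was lower by more.

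Scg5 encodes 7B2, the chaperone that the convertase PCSK2 needs to mature, and Scg3 encodes secretogranin III, which tethers chromogranin A to the granule membrane. The Scg5 probe (chr2:113616781-113616840, mm9) had signals of 17478 and 20243 in Tbx2-GOF against 11257 and 6815 in control, with log2 ratios of 0.63 and 1.57 (mean 1.10 ± 0.66, SD, n = 2). The Scg3 probe (chr9:75491320-75491379, mm9) had 4434 and 4869 against 3323 and 1315, with log2 ratios of 0.42 and 1.89 (mean 1.15 ± 1.04, SD, n = 2). Neither gene's genotypes overlapped, but they differed in how evenly the arrays showed it: Scg3 was 1.33-fold higher on array 1 and 3.70-fold on array 2.

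Several granin and neuropeptide genes are known targets of the cAMP-responsive factor CREB, whose full site reads TGACGTCA and whose half-site is commonly given as TGACG. The members were searched for these letters on both strands of the 250 bases before each gene's start. RefSeq promoters (GRCm38.p6) were given for 9 of the 10 genes, all but Vgf, and for 32851 genes in all. The full site stood in 3 of the 9, Scg2, Chgb and Cartpt, and in 1.55% of all promoters. TGACGT, which the full site contains, stood in those and in Chga, Scg5 and Vip, 6 of the 9, and in 6.47% of all promoters. The shorter TGACG, contained in both, added Scg3, making 7 of the 9 against 17.8% of all. AGGTGT, the letters of a T-box half-site, stood in 1 of the 9, Gal, and in 11.8% of all promoters. These matches are letters in a window and were not measured as bound sites, and any link to the ratios was not tested. The windows around them are shown because they let the members be compared base by base, with the matched letters in capitals and each read 5′ to 3′ on the gene's strand. They come from chr1:79440076-79440105 (minus strand, first matched base 68 bases before the start) for Scg2, chr2:132781559-132781588 (plus, 72) for Chgb, chr13:99900777-99900806 (minus, 112) for Cartpt, chr12:102554886-102554913 (plus, 44) for Chga, chr10:5639128-5639155 (plus, 79) for Vip and chr2:113829250-113829277 (minus, 175) for Scg5.
Scg2: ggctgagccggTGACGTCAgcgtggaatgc
Chgb: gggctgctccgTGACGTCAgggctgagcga
Cartpt: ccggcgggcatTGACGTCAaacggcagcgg
Chga: gggcggtcctaTGACGTaatttcctggg
Vip: gatcactactgTGACGTctttcggggag
Scg5: aaggaggtaaaTGACGTtcataggggtc

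Of the granins with a full site, Scg2 had the highest ratio on each array, at 2.36-fold and 3.75-fold. Vgf, with higher ratios, was not searched. For Scg2 the 130 bases up to the start show where its full site sits. They span chr1:79440027-79440156 on the minus strand of GRCm38.p6, with the site in capitals.
Scg2 upstream: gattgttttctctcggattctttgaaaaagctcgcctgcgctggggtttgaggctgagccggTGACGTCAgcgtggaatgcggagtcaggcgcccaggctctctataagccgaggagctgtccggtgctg

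Among the neuropeptides, Cartpt had the highest ratio of the 10 genes and the second highest of all genes tested. It encodes the precursor of CART, a peptide of hypothalamic, sympathetic and enteric nerve cells. Its normalised signal was 32926 and 34460 in the Tbx2-GOF extracts and 16368 and 4729 in the control extracts. The Tbx2-GOF signals were nearly alike and the control signals were not, and all Tbx2-GOF signals were above all control signals. The log2 ratio was 1.01 on array 1 and 2.87 on array 2, that is 2.01-fold and 7.29-fold, with a mean of 1.94 ± 1.31 (SD, n = 2). This gene did not pass the adjusted threshold, and only 18 genes differed more between the arrays.

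Npy encodes neuropeptide Y, the main peptide cotransmitter of noradrenaline in sympathetic nerves. Its signals were 4036 and 6149 in Tbx2-GOF and 3028 and 1855 in control, and it was the member whose Tbx2-GOF signal changed most between arrays, by 0.61 on the log2 scale. Its log2 ratios of 0.41 and 1.73 averaged 1.07 ± 0.93 (SD, n = 2), without overlap of the genotypes.

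The probes of these 2 genes are shown because each reads the part of the precursor message where a convertase cuts. The Npy probe of 60 bases covers 3763 bases of chromosome 6 (chr6:49773743-49777505, mm9) and the Cartpt probe 990 bases of chromosome 13 (chr13:100668967-100669956, mm9), so both cross an intron and match the spliced message. In the Npy probe the capitals, from position 47 counted from the 5′ end, are the codons for glycine, lysine and arginine, the site at which the peptide is cut free and amidated. In the Cartpt probe the capitals, from position 1, are the codons for lysine and arginine, the paired basic residues just before a mature CART peptide.
Npy: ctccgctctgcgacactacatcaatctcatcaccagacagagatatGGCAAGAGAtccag
Cartpt: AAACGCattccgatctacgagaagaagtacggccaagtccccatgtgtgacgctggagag

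Vip encodes vasoactive intestinal peptide, a relaxant of smooth muscle released by parasympathetic and enteric nerve cells. It was the dimmest member, at chr10:4699238-4699297 (mm9), with signals of 337 and 428 in Tbx2-GOF and 287 and 143 in control. The file names this probe for Vip and places it on the minus strand of mm9, whereas RefSeq has Vip on the plus strand of GRCm38.p6. Whether the probe reads the Vip message was not settled here, so its values are those of the probe. The array 1 signals lay close together, and most of the mean log2 ratio of 0.91 ± 0.96 (SD, n = 2) came from array 2 (0.23 and 1.59). With the scanner software's processed signals its mean was 1.41, with 0.27 on array 1 and 2.55 on array 2.

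Gal encodes galanin, a peptide of sensory, enteric and some sympathetic nerve cells. Its probe (chr19:3411143-3411202, mm9) read 1547 and 1632 in Tbx2-GOF and 1531 and 1148 in control. On array 1 the genotypes were level, at a log2 ratio of 0.01, and on array 2 Tbx2-GOF was higher by 0.51. The mean was 0.26 ± 0.35 (SD, n = 2), smaller than its own spread, and it ranked 1789 from the highest. Over the processing alternatives the array 1 value of Gal ranged from -0.06 to 0.10, so its direction on that array was not settled.

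**Figure D2:**
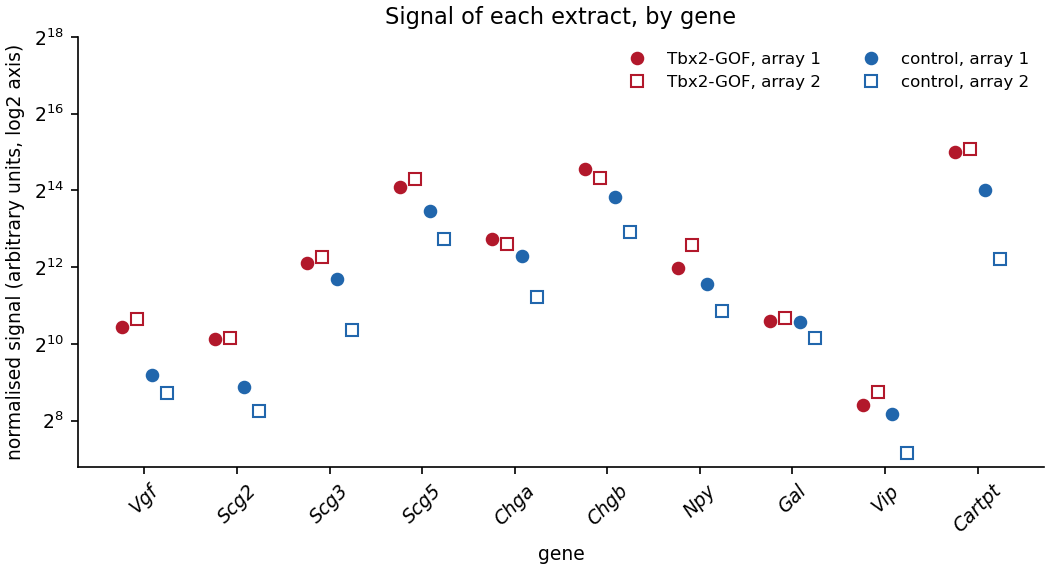
Normalised signal of each extract (vertical axis, arbitrary units, log2 axis) for the 10 genes (horizontal axis), with red for Tbx2-GOF, blue for control, filled circles for array 1 and open squares for array 2. Red symbols lie above blue ones for every gene, by 0.01 (log2) at the closest for Gal, and the open blue square is the lowest symbol of each gene; levels are not comparable between genes, since each probe has its own response.

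All 10 genes had both Tbx2-GOF signals above both control signals, as did 18.2% of all genes tested. For all 10 the ratio was larger on array 2, by 0.49 (Gal) to 1.86 (Cartpt) on the log2 scale. Over all genes the absolute difference between the arrays had a median of 0.196 and a 95th percentile of 0.677. By gene the difference was 0.68 for Vgf, 0.67 for Scg2, 0.67 for Chgb, 0.94 for Scg5, 0.93 for Chga, 1.31 for Npy, 1.35 for Vip and 1.47 for Scg3. Vgf, Scg2 and Chgb thus lay near that percentile and the others except Gal beyond it.

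In the scaled signals, the side of the comparison that moved was mainly the control. From array 1 to array 2 the control signal of each of the 10 genes was lower, with changes between -0.42 (Gal) and -1.79 (Cartpt) on the log2 scale and a median change of -0.82. The Tbx2-GOF signal changed by between -0.24 (Chgb) and 0.61 (Npy), with a median of 0.11. Over all genes the median change was -0.01 in both genotypes, after normalisation and scaling that bring the arrays level. Each genotype also changed dye between the arrays, so a difference between extracts cannot be told apart from one of dye or array.

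Markers of nerve and chromaffin cells also had ratios mostly above 0 and larger on array 2, and 1 of 29 passed the adjusted threshold. In the list of 15 sympathetic and chromaffin markers, 14 were above 0 on both arrays and 15 were well above background in both genotypes. The exception was Gata2, a transcription factor gene named after its values were seen, at -0.37 on array 1 and 0.32 on array 2. By limma's adjusted p, 1 of the 15 rose, Th, tyrosine hydroxylase of the catecholamine pathway (0.93 and 1.74, mean 1.34 ± 0.57, adjusted p = 0.0431). Slc18a2, the vesicular monoamine transporter gene, was at 1.28 (adjusted p = 0.0525). The list median was 0.44 on array 1 and 1.66 on array 2. Its summed signal was 166865 and 171984 in Tbx2-GOF and 138823 and 74051 in control, lowest in the control of array 2.

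In the list of 14 pan-neuronal markers all were above 0 on both arrays, with medians of 0.35 and 1.75. By limma's test 0 of the 14 passed the adjusted threshold and 14 were higher at an unadjusted p of 0.05. Nefm, a neurofilament gene, was at 0.62 and 2.44 (mean 1.53 ± 1.28, adjusted p = 0.148), and Elavl4, an RNA-binding protein of nerve cells, at 0.65 and 1.93 (adjusted p = 0.112). The summed signal was 158432 and 181491 in Tbx2-GOF and 121122 and 63101 in control. All 29 markers of these 2 lists were well above background in both genotypes on both arrays. The part of nerve tissue in the ratios of the granins and neuropeptides was not tested.

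On array 1, 3 of the 10 genes lay above all 29 of these markers. The highest marker there was Th at 0.93, and Vgf (1.24), Scg2 (1.24) and Cartpt (1.01) lay above it. Such a height on array 1 was not particular to the members. Genes of other lists above all 10 there included Akr1b7 of the adrenal cortex (3.69), Fabp7 of Schwann cell precursors (1.40) and the granule gene Syt4 (1.38). The urothelium marker Upk2 (1.05) and the peptide ligand gene Edn1 (1.02) lay above Cartpt. On array 2 the highest of the 29 markers was Nefm at 2.44, and of the 10 genes only Cartpt (2.87) was above it. These are positions in a ranking of single arrays, and the differences between genes were not tested. The members were chosen on these ratios, and the share of all genes above Th on array 1 was not counted.

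**Figure D3:**
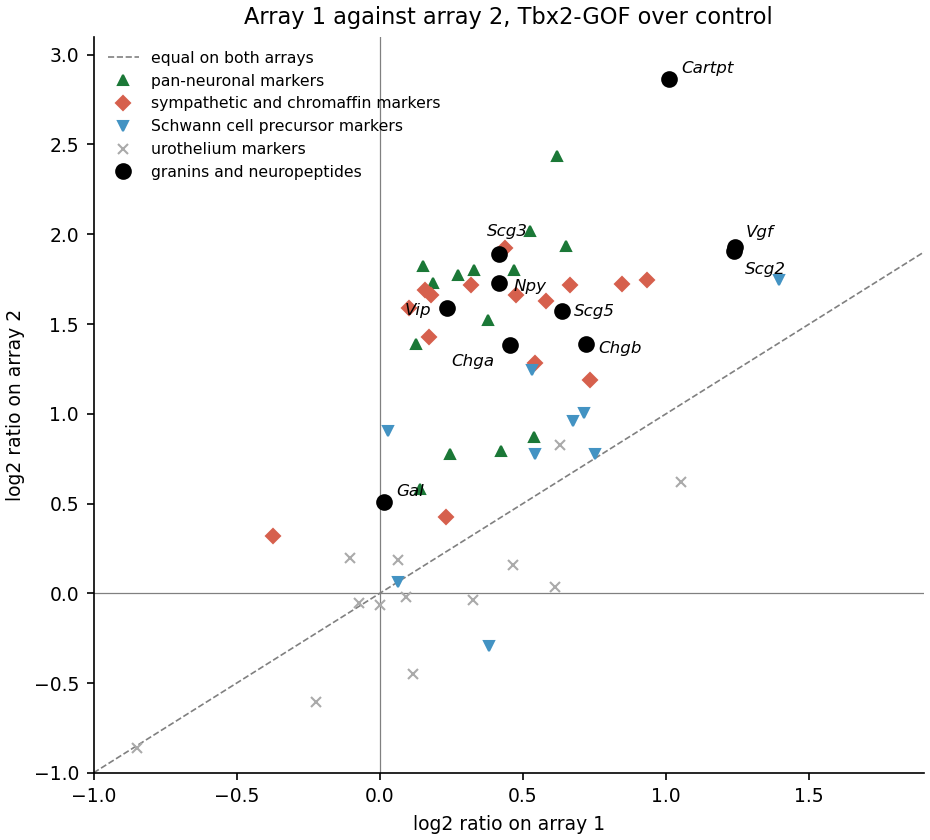
Log2 ratio of Tbx2-GOF over control on array 1 (horizontal axis) against array 2 (vertical axis), for the 10 genes (black, named) and for markers of nerve cells, sympathetic and chromaffin cells, Schwann cell precursors and urothelium. The dashed line marks equal ratios, and the 10 genes and all 29 nerve and chromaffin markers lie above it. Vgf, Scg2 and Cartpt lie farther right than any of these 29. The Schwann cell precursor marker Fabp7 (1.40 on array 1) lies farther right than all 10 genes, and the urothelium marker Upk2 (1.05) farther right than Cartpt.

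Markers of Schwann cell precursors, the glia that line nerves, had medians of 0.54 on array 1 and 0.90 on array 2, and 8 of the 9 were above 0 on both arrays. Of these 9 genes 1 rose, Fabp7, a lipid carrier of early glia (1.40 and 1.75, adjusted p = 0.0190 by limma), and Sox10, the transcription factor of neural crest glia, was at 0.89 (adjusted p = 0.109). The summed signal was 35709 and 35791 in Tbx2-GOF and 19769 and 15928 in control. Enteric and parasympathetic markers, 6 measured of 7, were at 0.28 and 1.06, with 0 past limma's adjusted threshold and 6 higher at an unadjusted p of 0.05. Ret was at 1.25 and Slc18a3, the vesicular acetylcholine transporter gene, at 1.16 (adjusted p = 0.120 and 0.196). The summed signal of these 6 was 20657 and 19445 in Tbx2-GOF and 16603 and 11290 in control. As with the other lists, their part in the members' ratios was not tested.

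Lists for other granule-bearing or neighbouring tissue had medians close to 0 on both arrays. Only 4 of 9 pancreatic and gut endocrine markers were measured, with medians of 0.06 and -0.05. By limma 0 passed the adjusted threshold and 0 the unadjusted one; Sct, secretin, was at 0.12 and Ins2, an insulin gene, at -0.10. Ins1, Gcg, Gip, Neurog3 and Pax4 were not well above background on both arrays in either genotype. Of 10 adrenal cortex markers 2 rose, Akr1b7 (3.69 and 2.85, adjusted p = 0.00516) and the ACTH receptor gene Mc2r (mean 1.27 ± 0.33, adjusted p = 0.0277, with the control above background on 1 array; 2.59 with processed signals). The median of that list was 0.05 and -0.07. Its summed signal was 13810 and 12150 in Tbx2-GOF and 5764 and 6697 in control, and whether adrenal tissue had a part in the members' ratios was not tested.

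The ureter's own markers were all well above background in both genotypes. Of 8 ureteric mesenchyme markers 0 passed limma's adjusted threshold, with 1 higher and 1 lower at an unadjusted p of 0.05; medians were -0.34 and 0.01, Aldh1a2 was at 0.71 and Tbx18 at -0.45 (adjusted p = 0.101 and 0.266). Of 13 urothelium markers 1 fell, Upk3a (-0.86, adjusted p = 0.0450), Upk2 was at 0.84 (adjusted p = 0.0715; 1.70 with processed signals), and the medians were 0.09 and -0.02.

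Of 10 genes for prohormone processing 0 passed limma's adjusted threshold in either direction, with 3 higher and 2 lower at an unadjusted p of 0.05, and the medians were 0.20 on array 1 and 0.16 on array 2. Pcsk1n, whose product proSAAS is a granin-like inhibitor of the convertase PCSK1, had the highest mean of the list, 0.88 ± 0.88 (adjusted p = 0.254), with 0.26 on array 1 and a larger ratio on array 2. Pcsk1, the convertase itself, was at 0.38 and 0.71 (adjusted p = 0.187), with the control above background on 1 array and a mean of 1.06 with processed signals in place of 0.55. Pcsk5, a convertase of many growth factors, was at -0.44 and -0.56 (adjusted p = 0.190). Chosen for their role after their values were seen, Pcsk2, the convertase that the Scg5 product serves, was at 0.30 (adjusted p = 0.555), the carboxypeptidase gene Cpe at 0.14 (0.959) and the amidating enzyme gene Pam at 0.03 (1.00). The difference between processing and cargo genes was not tested.

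Of 22 genes for granule biogenesis and exocytosis 21 were measured, and Rph3a was not kept. By limma's adjusted p 2 rose, 0 fell and 19 did not pass, and 17 were above 0 on both arrays, with medians of 0.21 and 0.46. Syt4, a synaptotagmin of dense-core granules, was higher by nearly the same amount on both arrays, at 1.38 and 1.25 (mean 1.31 ± 0.09, adjusted p = 0.0190). Rab27a, a GTPase that docks granules at the plasma membrane, was at 0.78 and 0.87 (mean 0.82 ± 0.07, adjusted p = 0.0485). Cplx1, a complexin that clamps SNARE complexes, had the pattern of Scg3 and Npy, at 0.51 and 2.13 (mean 1.32 ± 1.14, adjusted p = 0.167).

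Among 21 other peptide ligands 16 were measured (Nmu, Pyy, Ucn, Pthlh and Edn3 were not kept), with medians of 0.35 and 0.52. By limma's adjusted p 0 passed; at an unadjusted p of 0.05, 8 were higher and 1 lower. Cck, cholecystokinin, was at 0.42 and 1.10, Sst, somatostatin, at 0.33 and 1.12, and Edn1, endothelin 1, at 1.02 and 0.50 (adjusted p = 0.148, 0.196 and 0.116). Unlike the 10 members, Edn1 was higher on array 1 than on array 2.

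Receptors for the neuropeptides were 7 measured of 11, since Npy4r, Npy6r, Galr1 and Galr3 were not kept, and their medians were -0.08 and 0.06. By limma's adjusted p 0 passed, with 2 higher and 2 lower at an unadjusted p of 0.05. Npy1r, the receptor by which neuropeptide Y constricts smooth muscle, was at -0.59 and -1.07 (mean -0.83 ± 0.34, adjusted p = 0.0803), opposite in sign to Npy. Npy2r, found on nerve endings, was at 0.33 and 1.18 (adjusted p = 0.198; its dimmer probe had a mean of 0.47), and Adcyap1r1, a receptor that responds chiefly to the VIP-related peptide PACAP, at 0.37 and 1.26 (adjusted p = 0.184).

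**Figure D4:**
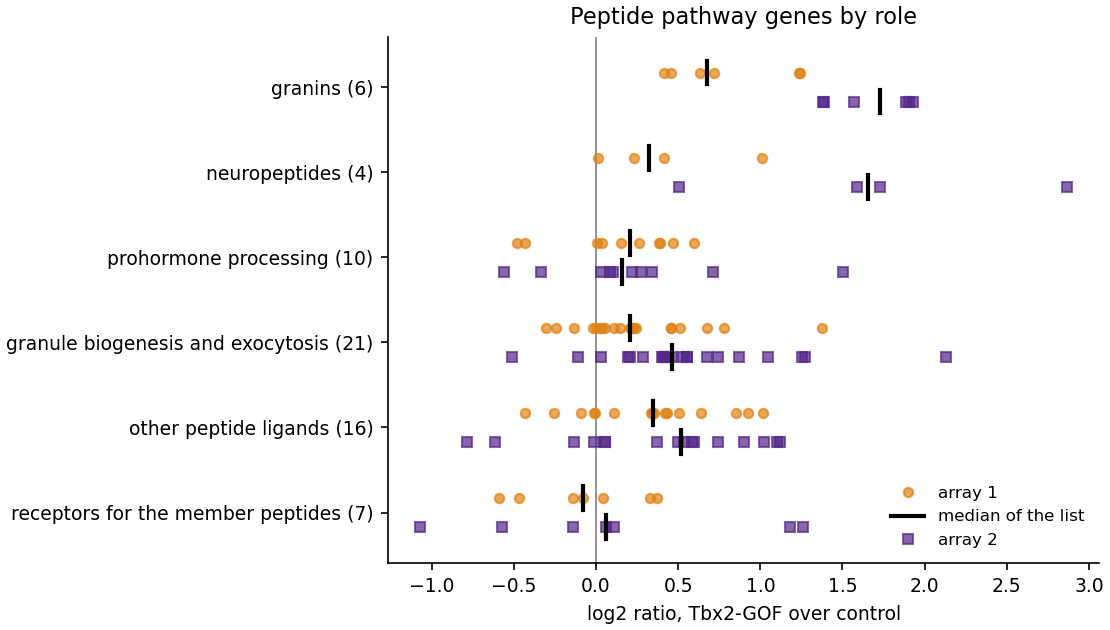
Log2 ratio of Tbx2-GOF over control (horizontal axis) for the genes of each role (vertical axis, with the number measured), with circles for array 1, squares for array 2 and black bars for the median of each list on each array. On array 2 the granins and neuropeptides have medians of 1.73 and 1.66, the other 4 lists between 0.06 and 0.52; on array 1 the neuropeptide median of 0.32 lies below the 0.35 of the other peptide ligands.

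Among the genes whose ratios on the 2 arrays lay closest to the members' medians (0.54, 1.66), by Euclidean distance over the 2 arrays, were Dusp26 (0.53 and 1.68, distance 0.0267), a phosphatase gene, and Insm1 (0.58 and 1.63), a zinc-finger factor of neuroendocrine cells. Dbh (0.48 and 1.66), the enzyme that makes noradrenaline inside granules, and Cacng3 (0.50 and 1.76), a calcium channel and AMPA receptor subunit, at a distance of 0.110, were also among the nearest. With 2 arrays this likeness rests on 2 values per gene. Insm1 and Dbh are also in the sympathetic and chromaffin list.

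Which of the genes passed limma's adjusted threshold depended on the processing. The calls for Vgf and Scg2, and those for Th, Fabp7, Syt4, Rab27a, Akr1b7, Mc2r and Upk3a, were absent with the series value table, processed signals or median centring, where 0 of 21097 genes passed. With those settings, in that order, 9, 8 and 8 of the 10 granin and neuropeptide genes had an unadjusted limma p under 0.05. Of all 21097 genes, 2060, 2064 and 1219 did so in either direction. Since the members were chosen on this contrast, nothing is read from these counts. The calls for Th and Rab27a were also absent without the background offset, that for Mc2r with the strict filter and that for Th with a trended, robust variance. With scaling between arrays and with no filter on dim probes, 5 of the 10 passed: Vgf, Scg2, Scg5, Chgb and Cartpt. In those settings 313 of 21097 and 276 of 31793 genes tested passed in either direction.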

How the data were processed

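Spot and background signals are intensity values as scanned, per the file headers, written by software that the submitters' processing notes give as Agilent Feature Extraction 10.7.3.1. The processed signals, intensity values dye-normalized by the software, its log10 ratio and its flags on outliers and background are also as deposited, per the file headers. In the deposited value table of the series is a signed score of unstated scale. It was read as a signed fold, put on the log10 scale and compared with the log10 ratio, turned to Tbx2-GOF over control. Among probes well above background in both genotypes on both arrays, 99.6% of values on each array matched within 0.01.

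Log2 ratios were computed here with limma 3.58.1 in R 4.3.3: normexp (offset 50), loess (span 0.3), control and outlier spots at weight 0, turned by the labelled dyes. Signals per extract were scaled with Aquantile. A probe was kept where either genotype was well above background on both arrays (26471 of 39429 probes); the brightest kept probe stood for a gene. RefSeq accessions updated the symbols of 67.0% of probes. Tests were lmFit and eBayes over 21097 genes with Benjamini-Hochberg adjustment at 0.05, two-sided, 1 residual degree of freedom; the fit was tested on simulated data. Of the probes, 66.7% and 72.7% were well above background in Tbx2-GOF and 70.5% and 66.4% in control. Probe coordinates are those of the files (mm9). Exon and UTR positions were not analysed here.

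The members, gene lists and tests were chosen with earlier results of these data known. Named were all members, of each pathway list the called genes and the 3 largest absolute mean ratios, of each marker list the called genes and the 2 largest, and the 5 genes nearest to the members' medians, of which 1 is not reported here. Alternatives changed the background correction, normalization, filter, probe rule, variance model, source of values and arrays used.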

Additional observations from a re-analysis of the deposited data

How the results depend on the processing

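Over 9 other settings with both arrays, 90 of 90 mean log2 ratios of the 10 genes stayed within 1 SD of those reported and 0 changed sign. The members' median ranged from 1.05 to 1.13 over these settings. Each gene had 1 probe that passed every filter, so changing the filter or the probe rule returned the same values. The series value table gave nearly the values of the processed signals. That SD is the one between the 2 arrays, up to 1.31 for Cartpt, so staying within it says little about steadiness. With 1 array left out there is a value and no test: 0.54 or 1.66 for the members, 0.68 or 1.73 for the granins and 0.32 or 1.66 for the neuropeptides.

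The calls moved with the processing; the cause was not tested. Of all genes, limma's adjusted threshold passed 135 as reported, and 0 with median centring, 0 with the series value table and 0 with processed signals (1219, 2060 and 2064 at an unadjusted p of 0.05). It passed 313 with scaling between arrays, 276 with no filter on dim probes and 211 with the mean of a gene's probes. Without the filter 31793 genes were tested, and with the strict filter 20201, in place of 21097. Of the members it passed 2 as reported, 0 in each of the former 3 settings, and 5, 5 and 4 in the latter 3. Of the pathway and marker genes it passed 7 as reported, 0 in each of the former, 25, 16 and 13 in the latter, and 12 with a trended, robust variance. The other settings gave 109 to 171 genes and 2 or 3 members. With 2 arrays, 1 of each dye orientation, no spread within an orientation was measured. The mean of Vip, the dimmest member, ranged from 0.86 to 1.41 over the settings with both arrays.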
